A study of Homo sapiens with 20 samples.

Results

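The 10 genes GATA3, FOXA1, SPDEF, ESR1, TFF1, TFF3, AGR2, CEACAM6, KRT8 and KRT18, which mark luminal breast epithelium, were followed through SKBr3 cells, a human breast cancer line with an amplified ERBB2 (HER2) gene, on 20 Illumina HumanHT-12 v4 arrays. The set was chosen by name, and every array probe carrying one of these symbols was taken, which gave 12 probes, of which 11 were detected on both arrays of at least 1 group. The ESR1 probe was detected on 0 of the 20 arrays, so that 9 of the 10 genes were tested among 9592 genes in all. AGR2 and KRT18 each had 2 detected probes, and their brighter probe is reported unless the other is named.

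The cells fell into 10 groups of 2 arrays. SKBr3 cells deprived of serum received vehicle (starved), EGF or heregulin (HRG), the growth factors at a labelled 100 µM for a labelled 24 h. The study's published methods give a shorter time before RNA extraction, so the length of that exposure is uncertain. The labels give both 24 h and 48 h for the starvation. Parental cells (pSKBr3), with a DMSO label, and lapatinib-resistant cells (LRSKBr3) were grown in medium with 10% FBS. The resistant cells were kept in lapatinib, which blocks the kinases of EGFR and ERBB2, at 2 µM per the protocol and 1 µM per the group label, so that resistance and exposure to the drug cannot be told apart. Each of these 5 cultures was transfected for 60 h with a control siRNA pool (siC) or with siERRalpha, a pool against the orphan nuclear receptor ERRα. The labels do not say whether the 2 replicates of a group were separate cultures, so a p-value here reflects only how far these samples spread, which may be technical. In such bulk samples, fewer cells of a kind and less RNA per cell cannot be told apart.

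In the mammary gland, luminal cells line the ducts and secrete into them, and basal cells surround them. GATA3 and FOXA1 are transcription factors that set up and maintain the luminal programme, and in oestrogen receptor-positive tumours they act together with the receptor encoded by ESR1. SPDEF is an ETS-family factor of luminal and secretory epithelia. TFF1 and TFF3 are small secreted trefoil peptides, and TFF1 is a classic oestrogen target. AGR2 is a disulphide isomerase of the endoplasmic reticulum, CEACAM6 is a GPI-anchored adhesion molecule of the cell surface, and KRT8 and KRT18 pair to form the keratin filaments of simple epithelia.

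The upstream sequences of AGR2 and CEACAM6, which moved together across these cultures, and of FOXA1, whose level changed little, are shown so that the regions next to their start sites can be compared. Each runs 5′ to 3′ over the 250 bases before the start given by RefSeq on GRCh38.p14, with motif matches in capitals. The AGR2 window is chr7:16805000-16805249 on the minus strand, the CEACAM6 window chr19:41755280-41755529 on the plus strand and the FOXA1 window chr14:37595250-37595499 on the minus strand.
AGR2: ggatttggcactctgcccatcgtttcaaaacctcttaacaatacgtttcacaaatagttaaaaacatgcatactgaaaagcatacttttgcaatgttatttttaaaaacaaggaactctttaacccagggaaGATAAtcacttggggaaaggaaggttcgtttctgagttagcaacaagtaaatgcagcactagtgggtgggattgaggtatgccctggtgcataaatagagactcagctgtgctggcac
CEACAM6: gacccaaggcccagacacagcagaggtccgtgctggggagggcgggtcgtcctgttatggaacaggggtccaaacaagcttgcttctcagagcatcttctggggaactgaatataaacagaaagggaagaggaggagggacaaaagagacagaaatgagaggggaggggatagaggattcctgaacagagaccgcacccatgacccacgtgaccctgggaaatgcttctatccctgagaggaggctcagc
FOXA1: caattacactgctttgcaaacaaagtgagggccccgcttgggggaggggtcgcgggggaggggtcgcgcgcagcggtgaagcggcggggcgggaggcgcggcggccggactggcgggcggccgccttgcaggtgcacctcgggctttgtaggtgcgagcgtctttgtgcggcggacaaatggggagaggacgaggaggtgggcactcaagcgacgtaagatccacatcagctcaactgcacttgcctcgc
Both strands were searched for the forkhead motif TGTTTAC, the GATA motif GATAA, the ERR half-site AAGGTCA, the AP-1 motif TGANTCA and the palindromic oestrogen response element. The only match in these 3 windows was a GATAA in that of AGR2, which began 118 bases before the start and overlapped no other motif. Of the 10 genes 7 were in the RefSeq promoter table, with 17 windows for alternative starts, of which 2 held GATAA (the AGR2 window and 1 of the 6 of GATA3), 1 held TGANTCA (also of GATA3) and 0 held any of the other motifs. Over all 35116 windows of the table, GATAA was in 20.4%, TGANTCA in 6.57%, AAGGTCA in 3.44%, TGTTTAC in 2.98% and the oestrogen response element in 0.0399%. TFF1, TFF3 and KRT18 were not among the entries.

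Probes detected per array numbered 12582 to 15177 on 19 arrays, and these 19 correlated with each other at r = 0.933 to 0.990. EGF siERRalpha replicate 1 stood apart, with r = 0.831 to 0.876 against the others and 12151 detected probes, so results whose calls changed without it are also given from a fit of the other 19 arrays. ESRRA, the target of the siRNA, lay between 8.53 and 9.17 log2 units on the 10 siC arrays and between 6.40 and 8.19 on the 10 siERRalpha arrays, without overlap. ERBB2, KRT19, EPCAM and 6 more of 10 genes listed as markers of this line were detected on all 20 arrays. The other listed gene, CDH1, was detected on 0. Of 12 markers of leukocytes, endothelium and fibroblasts, 6 (PTPRC, CD3E, PECAM1, COL1A1, DCN and LUM) were detected on 0 arrays and 4 could be tested. CD68 was detected on 20 arrays, CDH5 on 19, VWF on 9, LYZ on 6 and COL3A1 on 1.

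**Figure D1:**
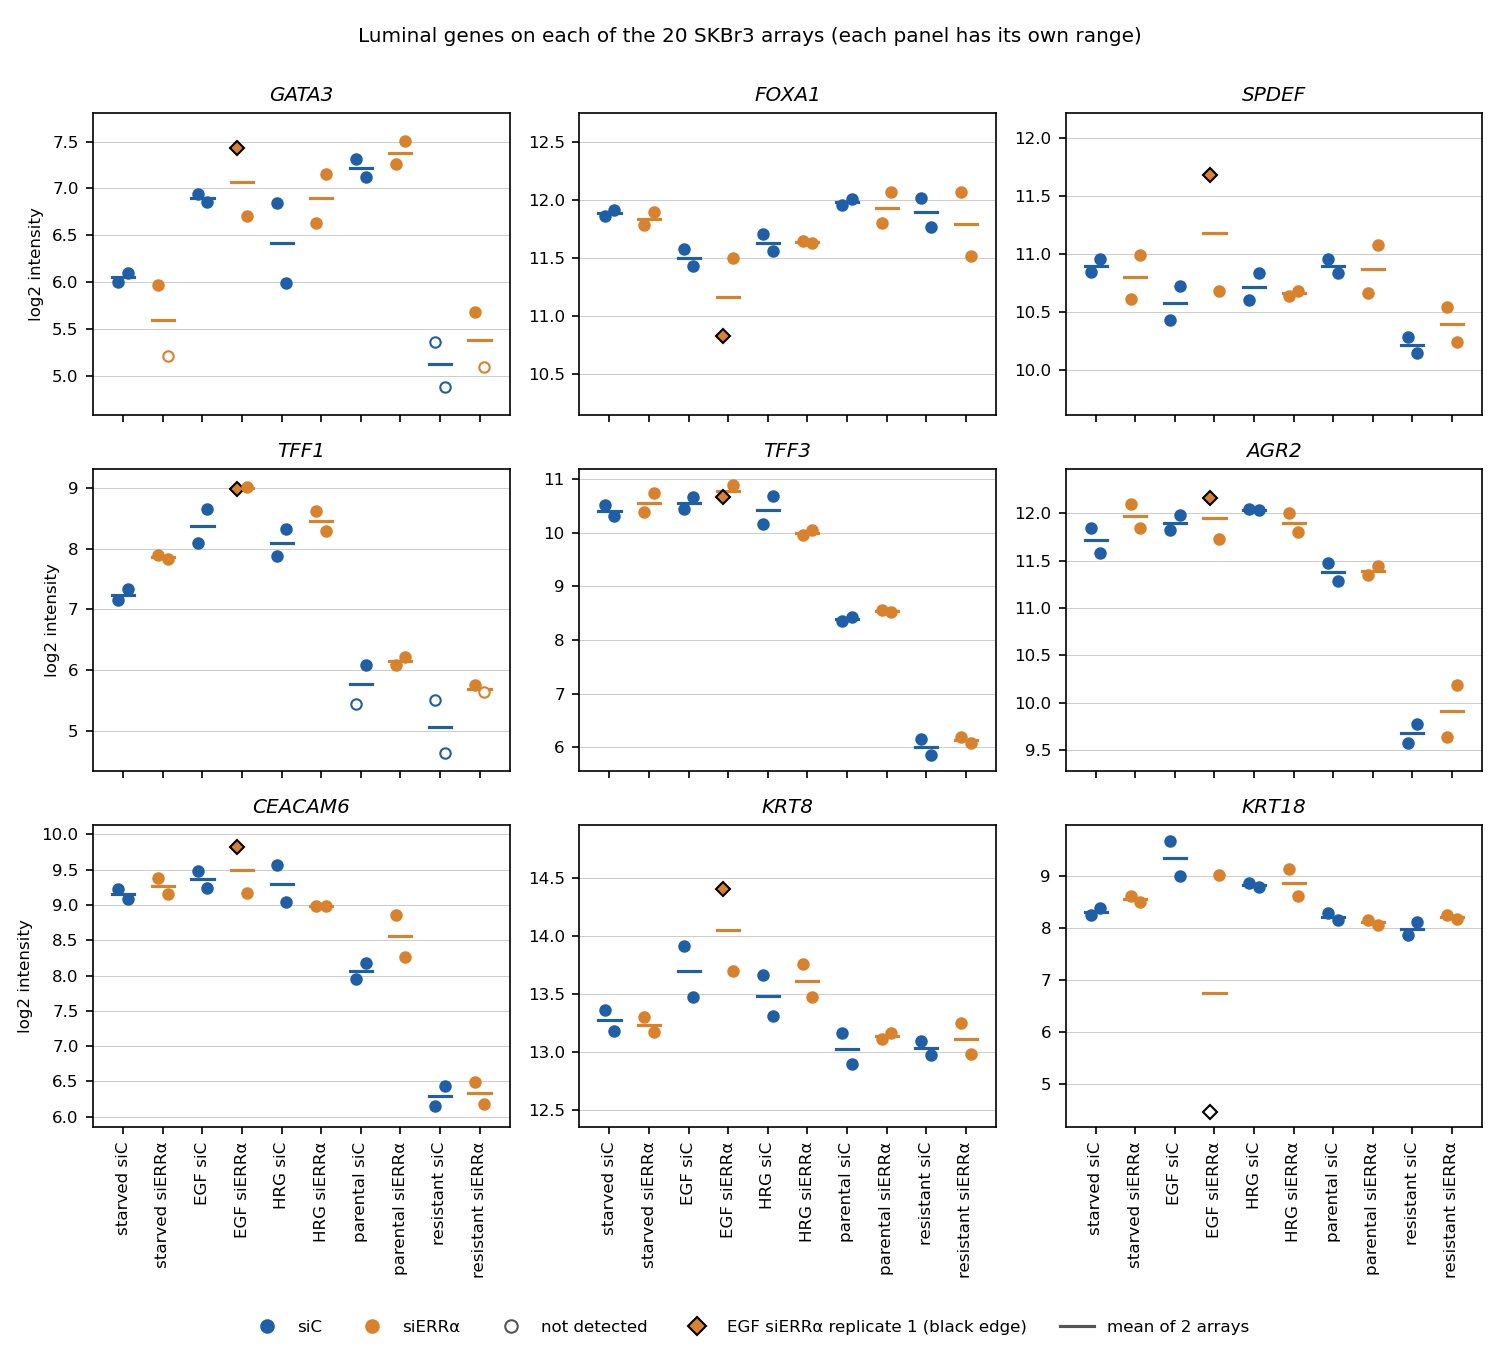
Log2 intensity (y axes, 1 range per gene) of the 9 measured luminal genes on each array of the 10 groups (x axis); bars are means of 2 arrays, open symbols arrays where the probe was not detected, and the black-edged diamond is EGF siERRalpha replicate 1. TFF3, AGR2 and CEACAM6 step down from parental to resistant cells, TFF1 lies lower in both of these cultures than in the starved, EGF and HRG cells, and the group means of FOXA1 and KRT8 span 0.48 and 0.67 log2 units without EGF siERRalpha replicate 1.

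The resistant cells carried less of 4 luminal genes than the parental cells did. Averaged over both siRNA arms, TFF3 fell 5.26-fold, CEACAM6 3.99-fold and AGR2 3.02-fold, whereas FOXA1, KRT8 and KRT18 differed by 0.12 log2 units or less. GATA3, detected on 1 of the 4 resistant arrays, fell as well, with measured means 4.13-fold apart over both arms and a bound of at least 3.02-fold in the siC arm. The 4 genes that fell made up 4 of the 9 tested, with 0 higher, where 13.1% of all genes were called in this comparison and 6.65% were called lower. The median of the 9 genes was -0.58 log2 units against 0.01 over all genes. In the fit of 19 arrays SPDEF was called as well, so that 5 of 9 were lower where 23.2% of all genes were called.

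GATA3, the GATA-family regulator, measured 7.32 and 7.12 log2 units in parental siC cells, 7.26 and 7.50 in parental siERRalpha cells, 5.37 and 4.88 in resistant siC cells and 5.68 and 5.09 in resistant siERRalpha cells. All 4 resistant arrays were below all 4 parental arrays, and the probe was detected on 1 of the 4 (5.68). The difference was -2.05 (SE 0.24, 95% interval -2.57 to -1.52, adjusted p = 0.000104, limma). In the siC arm alone both resistant arrays were below detection, and GATA3 was at least 3.02-fold lower there (measured means 5.12 against 7.22, adjusted p = 0.00353), a call lost without resistant siC replicate 2 (difference -1.85).

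SPDEF, the ETS factor, measured 10.96 and 10.84 in parental siC cells, 10.67 and 11.08 in parental siERRalpha cells, 10.28 and 10.15 in resistant siC cells and 10.55 and 10.24 in resistant siERRalpha cells. The resistant arrays were again all below the parental ones, by 0.58 on average (SE 0.19), but the difference did not pass the threshold (adjusted p = 0.0671). It was called in 6 of 30 alternatives, among them the fits without EGF siERRalpha replicate 1 (-0.58, adjusted p = 0.00622), without EGF siERRalpha replicate 2 (adjusted p = 0.00618) and with array weights (adjusted p = 0.00367). FOXA1, the forkhead factor, measured 11.95, 12.01, 11.80 and 12.07 on the 4 parental arrays and 12.02, 11.76, 12.06 and 11.51 on the 4 resistant arrays. These values overlapped, and the difference of -0.12 had an interval of -0.46 to 0.23 (adjusted p = 0.726).

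TFF3, a trefoil peptide, measured 8.36, 8.43, 8.55 and 8.53 on the parental arrays (siC, then siERRalpha) and 6.16, 5.86, 6.19 and 6.07 on the resistant arrays, all of which detected it. The groups were separated by more than 2 log2 units, and the difference was -2.40 (SE 0.14, 95% interval -2.70 to -2.09, adjusted p = 1.41e-07). TFF1, the other trefoil peptide, was near the detection limit in both cultures. It measured 5.45 (not detected) and 6.08 in parental siC cells, 6.08 and 6.22 in parental siERRalpha cells, 5.50 and 4.63 (neither detected) in resistant siC cells and 5.75 and 5.64 (the second not detected) in resistant siERRalpha cells. The parental and resistant arrays overlapped, and the difference of -0.58 (95% interval -1.02 to -0.14) was not called (adjusted p = 0.0865).

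AGR2, which assists the folding of secreted proteins, measured 11.48 and 11.28 in parental siC cells, 11.35 and 11.44 in parental siERRalpha cells, 9.58 and 9.77 in resistant siC cells and 9.64 and 10.18 in resistant siERRalpha cells. It stayed well detected in the resistant cells while falling by 1.59 (SE 0.15, 95% interval -1.91 to -1.27, adjusted p = 1.31e-05). The second AGR2 probe fell by 1.14 (adjusted p = 0.0131 over all detected probes). With siC alone that probe fell by 1.27 and was not called (adjusted p = 0.0892 over all detected probes). It was not detected on resistant siC replicate 2. CEACAM6, the surface adhesion molecule, measured 7.95, 8.18, 8.86 and 8.26 on the parental arrays and 6.15, 6.44, 6.49 and 6.19 on the resistant arrays. The lowest parental array was above the highest resistant array, and the difference was -1.998 (SE 0.19, 95% interval -2.40 to -1.60, adjusted p = 1.26e-05). CEACAM6 is close in sequence to CEACAM5, and the specificity of its probe was not examined.

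The keratins of simple epithelia showed no such difference. KRT8 measured 13.16, 12.90, 13.11 and 13.16 on the parental arrays and 13.09, 12.97, 13.25 and 12.98 on the resistant arrays, which overlapped (difference -0.01, 95% interval -0.37 to 0.35, adjusted p = 0.985). KRT18 measured 8.28, 8.15, 8.15 and 8.06 on the parental and 7.86, 8.12, 8.25 and 8.16 on the resistant arrays (difference -0.06, adjusted p = 0.972). Its interval ran from -1.45 to 1.32, since the spread of KRT18 in the fit included EGF siERRalpha replicate 1. Both keratins have many processed pseudogenes, and the specificity of their probes was not examined.

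The same 4 genes were called in the siC arm as in the mean of both. With siC alone the differences were -2.38 for TFF3 (adjusted p = 1.08e-05), -2.10 for GATA3, -1.77 for CEACAM6 (adjusted p = 0.00167) and -1.71 for AGR2 (adjusted p = 0.000438), so that 4 of 9 were called where 4.5% of all genes were called and 2.37% were called lower. With 19 arrays SPDEF was added (-0.68, adjusted p = 0.0317), 5 of 9 against 10.2% of all genes. In siERRalpha cells the measured differences were -2.41 for TFF3, -1.996 for GATA3, -2.22 for CEACAM6 and -1.48 for AGR2.

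**Figure D2:**
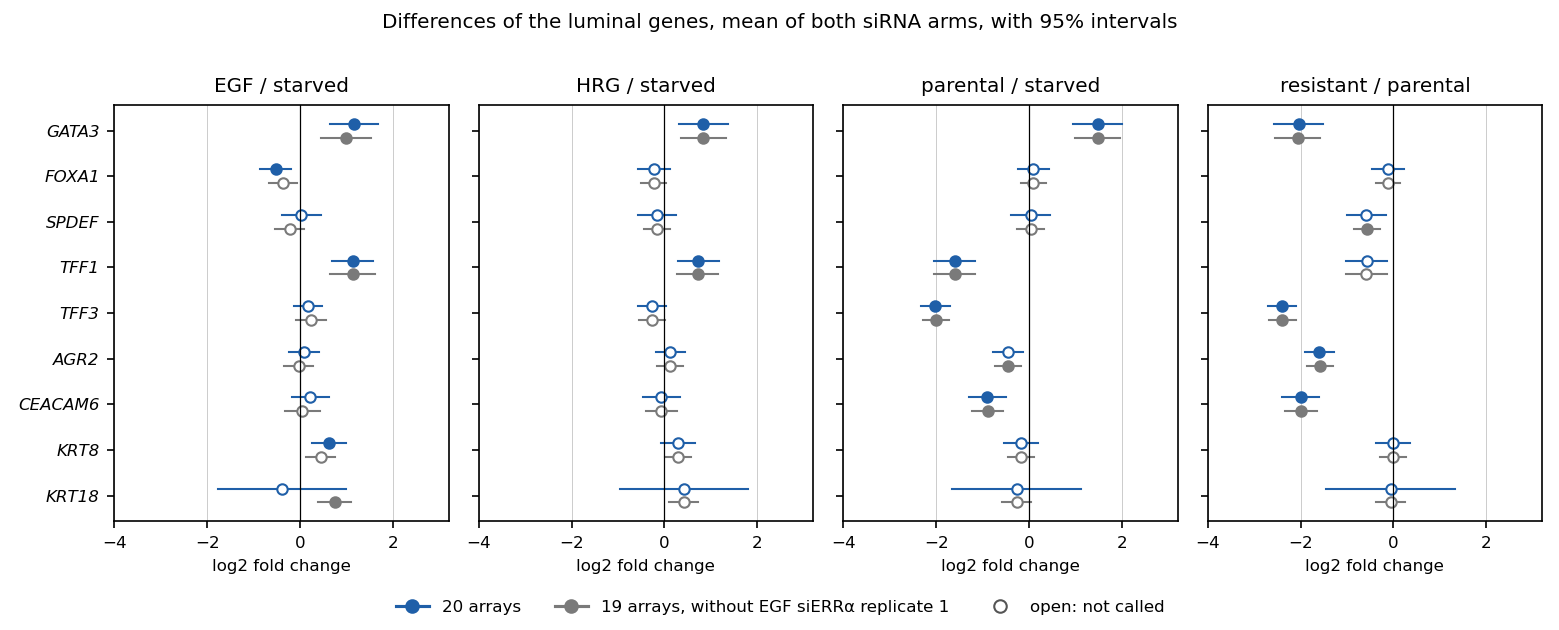
Log2 fold change (x axes) of the 9 luminal genes (y axis) for EGF over starved, HRG over starved, parental over starved and resistant over parental cells, each the mean of both siRNA arms with its 95% interval, from 20 arrays (blue) and from 19 arrays (grey); filled points were called. TFF3 lies below 0 in both right-hand panels, GATA3 is above 0 in the first 3 and below 0 in the last, and the KRT18 interval narrows in the fit of 19 arrays.

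Parental cells also differed from starved cells given vehicle, but these cultures differ in serum, vehicle, cell stock and experiment, which cannot be told apart. In starved cells GATA3 measured 6.005 and 6.10 with siC and 5.97 and 5.21 (not detected) with siERRalpha. The parental arrays, from 7.12 up, were all above these, and the level was higher by 1.48 (SE 0.24, adjusted p = 0.0046). TFF1 measured 7.16 and 7.33 with siC and 7.91 and 7.83 with siERRalpha in starved cells, and was lower in parental cells by 1.60 (adjusted p = 0.000765). TFF3, at 10.51 and 10.30 with siC and 10.38 and 10.73 with siERRalpha, was lower in parental cells by 2.01 (SE 0.14, adjusted p = 3.31e-06). CEACAM6 measured 9.22 and 9.09 with siC and 9.38 and 9.16 with siERRalpha in starved cells, and its level in parental cells was 0.90 lower (adjusted p = 0.0162). The CEACAM6 call was lost in 4 of 20 fits, without replicate 1 of starved siC, starved siERRalpha or parental siC or without parental siERRalpha replicate 2 (-0.75 to -1.05 over the fits).

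Thus 3 of the 9 genes were lower and 1 (GATA3) was higher in parental than in starved cells, where 3.17% of all genes were called and 2.11% were called lower. With 19 arrays AGR2 was called too (-0.46, adjusted p = 0.0469), 5 of 9 against 8.74% of all genes. AGR2 measured 11.84, 11.58, 12.10 and 11.84 on the starved arrays, all above the parental ones. Within the siC arm the genes called were TFF3 (-2.01, adjusted p = 0.000236) and TFF1 (-1.48, adjusted p = 0.0321, lost without any 1 of the starved or parental arrays or either resistant siERRalpha array), 2 of 9 against 0.73% of all genes called and 0.459% called lower. With 19 arrays CEACAM6 was called there too (-1.08, adjusted p = 0.0233), 3 of 9 against 2.15% of all genes. The parental arrays are shared by this comparison and that of resistance. For TFF3 the measured means were 10.48 in starved, 8.47 in parental and 6.07 in resistant cells, and for CEACAM6 they were 9.21, 8.31 and 6.32. GATA3 did not follow that order, with 5.82 in starved, 7.30 in parental and 5.26 in resistant cells.

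EGF, which signals through EGFR and its partner ERBB2, was accompanied by a higher TFF1 level. TFF1 measured 8.10 and 8.65 in EGF siC cells and 8.99 and 9.01 in EGF siERRalpha cells, and each pair was above the starved cells with the same siRNA. In siC cells the rise was 1.13 (SE 0.29, 95% interval 0.51 to 1.76, adjusted p = 0.0389), or 2.19-fold, and TFF1 was the only 1 of the 9 genes called, where 5.25% of all genes were called and 3.47% were called higher. This call was lost in 10 of the 20 fits that left out 1 array, those without any 1 of the starved, EGF siC, parental siERRalpha or resistant siERRalpha arrays, and over the 20 fits the rise ran from 0.85 to 1.41. With EGF siERRalpha replicate 1 left out, KRT18 was called beside it (1.02, adjusted p = 0.00709), 2 of 9 against 11.6% of all genes.

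Averaged over both arms, 3 genes were higher with EGF and 1 was lower, against 16.3% of all genes called and 8.92% called higher. TFF1 rose by 1.13 (SE 0.21, adjusted p = 0.00227). GATA3 measured 6.94 and 6.85 with siC and 7.44 and 6.71 with siERRalpha, above all 4 starved arrays, and rose by 1.16 (SE 0.24, adjusted p = 0.0059). KRT8 measured 13.91 and 13.48 with siC and 14.41 and 13.69 with siERRalpha, a rise of 0.62 (adjusted p = 0.0243). FOXA1 measured 11.57 and 11.43 with siC and 10.83 and 11.50 with siERRalpha, a fall of 0.53 (adjusted p = 0.0382).

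The calls of KRT8 and FOXA1 depended on single arrays, among them EGF siERRalpha replicate 1, whose 14.41 and 10.83 were the highest KRT8 and the lowest FOXA1 value of the 20 arrays. Of the 20 fits that left out 1 array, 5 lost the call of KRT8 (starved siC replicate 2, either starved siERRalpha array, EGF siC replicate 1 or EGF siERRalpha replicate 1 left out). The call of FOXA1 was lost in 11 (any starved or EGF siC array, EGF siERRalpha replicate 1, either HRG siERRalpha or either parental siC array left out). Without EGF siERRalpha replicate 1, KRT8 was 0.44 higher (adjusted p = 0.0526) and FOXA1 0.36 lower (adjusted p = 0.0873), and neither was called. KRT18 measured 9.67 and 8.999 with siC, 9.02 on EGF siERRalpha replicate 2 and 4.47 (not detected) on replicate 1, so its mean difference was -0.39 (adjusted p = 0.705) with all arrays and 0.75 (adjusted p = 0.00745) without that array. The second KRT18 probe measured 6.63, 6.17, 5.95 (not detected) and 6.21 on these 4 arrays. TFF1 (1.13, adjusted p = 0.00433) and GATA3 (0.99, adjusted p = 0.0161) were called without that array, and the 19 arrays thus gave TFF1, GATA3 and KRT18, 3 of 9 against 18.1% of all genes.

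The other genes besides KRT18 were not called with EGF averaged over both arms. TFF3 measured 10.44, 10.66, 10.67 and 10.88 on the EGF arrays, AGR2 measured 11.82, 11.98, 12.16 and 11.72, and CEACAM6 measured 9.48, 9.24, 9.83 and 9.17. All of these ranges overlapped those of the starved arrays. The differences were 0.18 for TFF3, 0.08 for AGR2 and 0.22 for CEACAM6, with intervals of -0.12 to 0.48, -0.24 to 0.40 and -0.18 to 0.62. SPDEF measured 10.43, 10.73 and 10.68 on 3 EGF arrays and 11.69 on EGF siERRalpha replicate 1, its highest value of the 20 arrays, and differed by 0.03 with all arrays and by -0.22 without that one (adjusted p = 0.322).

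HRG, which signals through ERBB3 paired with ERBB2, was compared with the same starved arrays as EGF. In siC cells 0 of the 9 genes were called by limma, against 2.91% of all genes, and 1 had an unadjusted p under 0.05 by limma (as had 14.6% of all genes) and 1 by the methods' t-test, with 0 after adjustment. The lowest p was that of TFF1, which measured 7.88 and 8.33 with siC, above both starved siC arrays (0.86 higher, 95% interval 0.23 to 1.48, adjusted p = 0.155). Averaged over both arms 2 genes were called, where 9.34% of all genes were called and 5.18% were called higher. TFF1, at 8.63 and 8.29 with siERRalpha, rose by 0.72 (SE 0.21, adjusted p = 0.0412). GATA3 measured 6.84 and 5.99 with siC and 6.63 and 7.15 with siERRalpha, a rise of 0.83 (SE 0.24, adjusted p = 0.0489), and its lowest HRG array lay within the starved range. With 19 arrays both were called, 2 of 9 against 19.6% of all genes. Of the 20 fits that left out 1 array, 12 lost the call of TFF1 (any starved, HRG, parental siERRalpha or resistant siERRalpha array) and 16 that of GATA3, which held only without starved siERRalpha replicate 1, HRG siC replicate 2 or either EGF siERRalpha array.

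The other 7 genes did not pass the threshold with HRG. FOXA1 measured 11.70, 11.56, 11.64 and 11.62, below all 4 starved arrays (-0.23, adjusted p = 0.435), and SPDEF measured 10.61, 10.84, 10.64 and 10.69 (-0.16). TFF3 measured 10.17 and 10.69 with siC and 9.95 and 10.05 with siERRalpha (-0.27, adjusted p = 0.276). AGR2 measured 12.04, 12.03, 11.999 and 11.80 (0.13), CEACAM6 9.56, 9.04, 8.99 and 8.99 (-0.07), KRT8 13.66, 13.31, 13.75 and 13.48 (0.30) and KRT18 8.85, 8.78, 9.13 and 8.61 (0.42, adjusted p = 0.778). Compared with each other in siC cells, HRG and EGF gave 0 called genes among the 9 and 0% of all genes by limma, with 0 members at an unadjusted p under 0.05 by limma (2.91% of all genes) and 0 by the methods' t-test. The intervals of that difference were -0.90 to 0.35 for TFF1 and -1.23 to 0.26 for GATA3.

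Depletion of ERRα changed none of the 9 genes past the threshold. Between siERRalpha and siC, limma called 0 of 9 in starved cells (0.0104% of all genes called), in EGF-treated cells (0.073%), in HRG-treated cells (0%), in parental cells (0%) and in resistant cells (0.0104%), and 0 of 9 for the mean of the 5 settings (0.0104%). At an unadjusted p under 0.05, limma had 0, 3, 1, 0 and 0 of the 9 genes in those settings and 1 for the mean, where 2.03%, 24%, 2.69%, 2.3% and 3% of all genes, and 8.63% for the mean, had such a p. The methods' t-test had 1 in starved cells and 0 in each of the others, and 0 after adjustment in all 5.

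TFF1 was the gene with an unadjusted p under 0.05 in the mean of the settings. It was higher with siERRalpha by 0.62 without growth factor, 0.63 with EGF, 0.36 with HRG and 0.38 in parental cells. In resistant cells no difference is given, since it was detected on 1 of the 2 siERRalpha arrays and on neither of the 2 siC arrays. The average over the 5 settings, which takes those 2 arrays at their measured values, was 0.52 (SE 0.13, 95% interval 0.24 to 0.80, adjusted p = 0.302, and 0.53 with 19 arrays, adjusted p = 0.179). Over the 4 settings without resistant cells, an average chosen after the data were seen, it was 0.50 (SE 0.15, 95% interval 0.18 to 0.81, adjusted p = 0.659). The siERRalpha arrays were all above the siC arrays in starved and EGF-treated cells and overlapped with them in HRG-treated and parental cells.

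The remaining genes gave mean differences between -0.44 (KRT18) and 0.13 (KRT8). KRT18 in EGF-treated cells measured -2.59 with all arrays and -0.31 without EGF siERRalpha replicate 1, and SPDEF in the same cells 0.60 and 0.10. For FOXA1 the mean difference was -0.11 with an interval of -0.32 to 0.11, for GATA3 0.12 with -0.21 to 0.46 (resistant siC arrays, where it was not detected, at their measured values), for TFF3 0.04 with -0.15 to 0.23, for AGR2 0.08 with -0.12 to 0.28 and for CEACAM6 0.10 with -0.16 to 0.35. ESRRA itself differed by -1.47 on average (adjusted p = 0.000527) and by -2.61 in resistant cells (adjusted p = 0.00794), the only single setting in which it was called.

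**Figure D3:**
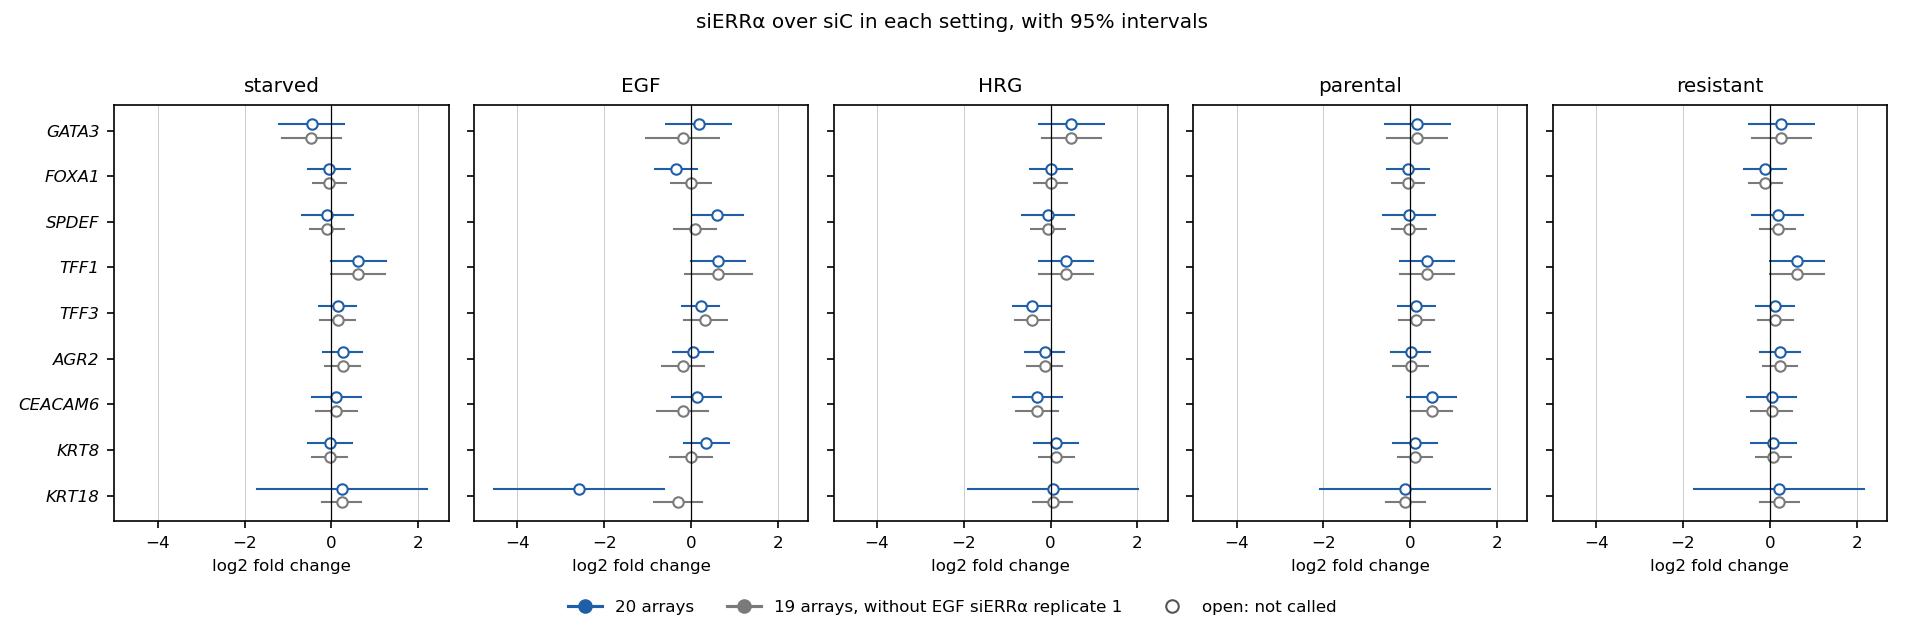
Log2 fold change of siERRalpha over siC (x axes) for the 9 luminal genes (y axis) in each of the 5 cultures, with 95% intervals, from 20 arrays (blue) and 19 arrays (grey); open points were not called, and none was. TFF1 lies between 0.36 and 0.63 in the 4 cultures other than resistant, where its siC arrays did not detect it, and KRT18 moves from -2.59 to -0.31 in EGF-treated cells when EGF siERRalpha replicate 1 is left out.

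The response to siERRalpha was also compared between cultures. limma called 0 of the 9 genes, and 0% of all genes, for the difference of the response between EGF-treated and starved cells, between HRG-treated and starved cells and between resistant and parental cells. At an unadjusted p under 0.05 there were 1 (KRT18), 0 and 0 of the 9, where 9.97%, 2.21% and 1.53% of all genes had such a p, and a t-test was not run on these differences. For TFF3 the response in resistant cells minus that in parental cells was -0.02, with an interval of -0.63 to 0.58.

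Other genes of the luminal programme did not share one direction in the resistant cells. Over all genes 13.1% were called in this comparison and 6.65% were called lower. Of 17 measured further luminal regulators, 4 were lower in resistant than in parental cells and 0 were higher, with a median of -0.18. These were ESRRA (-0.77), the retinoic acid receptor gene RARA (-0.72, adjusted p = 0.00538), TFAP2B (-0.71) and the vitamin D receptor gene VDR (-0.54). TFAP2B was not detected on the resistant arrays and was at least 1.08-fold lower. The ESRRA value came mainly from the siERRalpha arm, with 7.62 and 8.03 on parental and 6.40 and 6.43 on resistant arrays. With siC, ESRRA measured 9.14 and 9.17 in parental cells and 8.89 and 9.17 in resistant cells. With 19 arrays 2 of the 17 were higher and 6 lower, where 23.2% of all genes were called. With siC alone limma called 0 of the 17, where 4.5% of all genes were called. Of 23 measured luminal epithelial and secretory genes 7 were higher and 2 were lower, with a median of 0.07. LCN2, which encodes lipocalin 2, rose by 2.07 (adjusted p = 0.000219), the mammaglobin gene SCGB2A2 by 1.75 (adjusted p = 0.00761), SCGB1D2, which encodes its partner lipophilin B, by 0.99 and the mucin gene MUC1 by 0.84. SCGB1D2 was not detected on the parental siERRalpha arrays, and in that arm it was at least 1.72-fold higher in resistant cells. The others that rose were CRABP2, PIP and ANXA9, and those that fell were CLDN7 (-0.38) and SPINT2 (-0.42). With 19 arrays 8 of the 23 were higher and 7 lower, and with siC alone 3 were higher and 0 lower (5 and 1 with 19 arrays). Over all genes 10.2% were called in the siC comparison with 19 arrays.

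Of 11 measured oestrogen-responsive genes 1 was called in resistant cells, the carbonic anhydrase gene CA12, which rose by 1.62 (adjusted p = 6.96e-05), and their median was 0.08. Of 13 basal and myoepithelial genes EGFR rose by 1.15 (adjusted p = 0.000141) and SOX9 fell by 0.78, with a median of -0.29. Of 8 measured paralogs of the 10 genes, GATA2 rose by 0.54 (adjusted p = 0.0196) and ESRRA fell, mainly through the siERRalpha arm. With 19 arrays the counts of higher and lower genes were 3 and 0 for the oestrogen-responsive, 2 and 2 for the basal and 1 and 3 for the paralog list. Of 12 mesenchymal genes VIM was the only one measured, and it was called in none of the comparisons. Of the 9 measured markers of the SKBr3 line 0 were called in resistant cells, but 8 measured lower, with a median of -0.34. With 19 arrays 1 of these was higher and 6 were lower, where 23.2% of all genes were called. Over all genes the median was 0.01 in this comparison, and 13.1% were called.

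**Figure D4:**
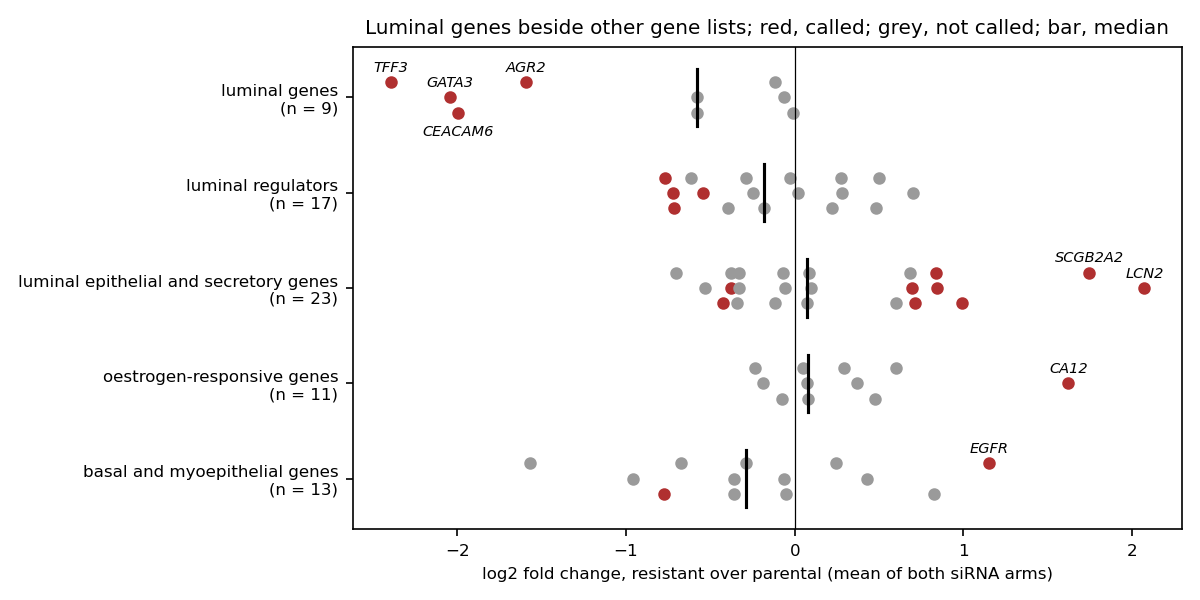
Log2 fold change of resistant over parental cells (x axis, mean of both siRNA arms) for each measured gene of the luminal set and of 4 further lists (y axis); red points were called, grey points were not, and the black bars are medians. The luminal genes have 4 called points at or below -1.59, whereas the called points of the secretory list lie on both sides of 0, up to 2.07 for LCN2.

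The same lists were read in the growth factor comparisons, averaged over both arms. With EGF, 3 of 17 luminal regulators were higher and 5 lower, where 16.3% of all genes were called. They were led by RARA (1.61), XBP1 (-1.39), TRPS1 (-1.10) and VDR (0.93), with NRIP1 also higher and GRHL2, EHF and ELF3 also lower. With 19 arrays XBP1 was -0.83 (adjusted p = 0.00177), EHF (-0.54, adjusted p = 0.109) and ELF3 (-0.42, adjusted p = 0.0774) were no longer called, and 3 of the 17 were higher and 4 lower, where 18.1% of all genes were called. With HRG, 2 of the 17 were higher and 2 lower, where 9.34% of all genes were called. These were RARA (1.47), VDR (0.69), ELF5 (-1.77) and TRPS1 (-0.67). RARA, at 12.8 with EGF and 12.6 with HRG against 11.2 in starved cells, and TFF1 were thus higher with both growth factors, which share the starved arrays.

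Of 13 basal genes 4 rose and 0 fell with EGF, and 4 rose and 0 fell with HRG. Their medians were 0.71 and 0.64, against -0.03 and -0.04 over all genes, of which 16.3% and 9.34% were called. With EGF these were SFN (2.52), LAMB3 (2.09), KRT16 (at least 1.69-fold higher, since it was not detected in starved cells) and SOX9 (1.09). With HRG they were KRT16 (at least 1.52-fold higher), SFN (1.52), LAMB3 (1.39) and SOX9 (1.09). With 19 arrays 6 of the 13 basal genes rose and 0 fell with each factor, where 18.1% (EGF) and 19.6% (HRG) of all genes were called. Of 23 luminal epithelial and secretory genes 2 were higher and 1 lower with each factor, the keratin gene KRT80 (1.12 with EGF and 1.47 with HRG), ST14 (0.41 and 0.52) and ANXA9 (-0.65 and -0.47). With 19 arrays ST14 was not called with EGF (0.34, adjusted p = 0.0685), and 1 of the 23 was higher and 1 lower with EGF and 3 higher and 2 lower with HRG. In parental against starved cells 3.17% of all genes were called and 2.11% were called lower. Of the 23 genes 4 were lower and 0 higher, which were PIP (-2.54), LCN2 (-1.46), CRABP2 (-1.32) and ANXA9 (-1.32). CA12 (-1.33), among the oestrogen-responsive genes, was lower as well. With 19 arrays these counts were 5 of the 23 and 3 of the 11 oestrogen-responsive genes lower, with 0 higher in either list. Over all genes 8.74% were called in that fit.

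Some markers of other cell types moved with the same comparisons. Of the 4 measured markers of 12, CDH5, an endothelial cadherin gene, was higher with EGF (2.46), with HRG (2.48) and in resistant cells (1.41), and VWF was higher in resistant cells (1.36, adjusted p = 0.00618). CDH5 was the only 1 of the 4 called with EGF (16.3% of all genes called) or HRG (9.34%), averaging 6.73 in starved cells, 9.19 with EGF and 9.21 with HRG. With 19 arrays 1 was higher and 1 lower with each factor, where 18.1% (EGF) and 19.6% (HRG) of all genes were called. In resistant cells 2 of the 4 were called, against 13.1% of all genes. The summed intensity of the 4 markers ran from 434 to 563 on the starved arrays, 822 to 1471 with EGF, 903 to 1235 with HRG, 401 to 485 in parental cells and 588 to 782 in resistant cells. PECAM1 and PTPRC, other markers of endothelium and leukocytes, were detected on 0 arrays, whereas CD68 was detected on 20. The part of other cells in the luminal results was not tested.

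Across the 10 group means (EGF siERRalpha from replicate 2 alone), TFF3, AGR2 and CEACAM6 ran close to each other, with Pearson's r of 0.957 for TFF3 and AGR2, 0.981 for TFF3 and CEACAM6 and 0.985 for AGR2 and CEACAM6. TFF1 correlated with TFF3 at 0.905 and with KRT8 at 0.926. FOXA1 ran against KRT8 (-0.942) and KRT18 (-0.925), which correlated with each other at 0.954. GATA3 correlated with no other of the genes above 0.631, its value with SPDEF. These are descriptions over 10 points that share one normalization and fall into starved cultures and cultures in serum.

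Among the genes brighter than the median gene, those most like each of the 9 in pattern over these 10 means were also found. TFF3 was closest to DBNDD1 (r = 0.990) and DDIT4 (0.987), and then to CEACAM6. AGR2 was closest to VSTM2L (0.985), CEACAM6 and SH3BGRL3 (0.983). CEACAM6 was closest to AGR2, TFF3 and PPP2R1A (0.977). TFF1 was closest to DBNDD2 (0.988), CACNB3 (0.988) and VMP1 (0.975), FOXA1 to PPM1H (0.986), KRT8 to FAM107B (0.985), KRT18 to ZFAND6 (0.969), SPDEF to CLPTM1 (0.979) and GATA3 to TOMM40 (0.943). The group means spanned 4.54 log2 units for TFF3 over 19 arrays, 3.07 for CEACAM6, 0.69 for SPDEF, 0.67 for KRT8 and 0.48 for FOXA1.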

How the data were processed

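RNA from 20 samples of SKBr3 cells was hybridized to Illumina HumanHT-12 v4 arrays. The deposited raw table held bead intensity on a linear scale for 47323 probes, and a detection p-value per probe and array, deposited by the authors without normalization. Every per-sample column matched a sample (0 did not). A table of values normalized by the authors with lumi in FlexArray, read here as log2, served as an alternative. The sources used here do not give its scale or transform, and each of its columns had the ranks of its own array. The tests of the authors were SAM and Student's t-test.

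Background was corrected by normexp on detection p-values (offset 16), followed by quantile normalization and log2, with limma 3.58.1 in R 4.3.3. The offset makes the fold changes of dim genes smaller. A probe was detected at a detection p under 0.01 and kept when detected on both arrays of at least 1 group, which left 15444 probes. Of all probes 30113 carried 1 symbol in the platform annotation, 8 several and 17202 none. A gene was read from its kept probe with the highest mean, giving 9592 genes. The number of arrays limits the precision.

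One limma fit of 10 group means gave all comparisons, with two-sided tests, Benjamini-Hochberg adjustment over the 9592 genes and calls at an adjusted p under 0.05. The same fit was made without EGF siERRalpha replicate 1, after normalizing 19 arrays. Where a probe was below detection on every array of one side, a bound is given, the bright mean against, on each dim array, its own level there or the lowest level of any detected probe, whichever was higher. Every named luminal gene is reported. Of the other lists, the called genes with the largest differences (at most 4) are named, and others called in a direction that held 5 or fewer were added after their values were seen, and for likeness of pattern the 3 genes of highest correlation. The luminal genes, the lists and the rules were chosen with earlier results of these data known. The fit was tested on data simulated with independent arrays and with spreads taken without EGF siERRalpha replicate 1. That test does not cover the effect of this array or of deviations shared by same-numbered arrays. The labels do not say that replicate numbers pair the samples, so no block was used. Deviations of same-numbered arrays correlated at -0.08 to 0.31 over 45 pairs of groups (over 0.1 in 21), and over 0.1 in all 10 pairs among the starved, HRG and EGF siC groups (0.150 to 0.314). Upstream windows came from RefSeq on GRCh38.p14, and all 10 symbols matched its gene table.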

Additional observations from a re-analysis of the deposited data

How the results depend on the processing

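Each comparison was refitted under 32 alternatives, 20 of them leaving out 1 array and 12 changing the background correction, offset, scaling, filter, probe choice, arrays in the fit, weights, block or test. The share of all genes called is given here only for the main fit and that without EGF siERRalpha replicate 1. Counts of called genes under the other alternatives are thus not compared with that share. For resistant over parental cells, averaged over both arms, 4 to 6 of the 9 luminal genes were called in every alternative, and GATA3, TFF3, AGR2 and CEACAM6 fell in each that tested them. Their size depended on the background correction. Without it the differences were -0.88 for GATA3, -1.40 for TFF3, -1.19 for CEACAM6 and -1.48 for AGR2, and in the authors' table, whose scale is unknown, -0.54, -1.002, -0.85 and -1.51. Median scaling moved the median of all genes by 0.26 in parental over starved cells (0.29 with siC), where TFF3 was then -1.73, TFF1 -1.40 and CEACAM6 -0.62 (adjusted p = 0.0788, no longer called).

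The only difference that turned while called on either side was KRT18 with EGF on average, which ran from -1.53 without EGF siERRalpha replicate 2 to 0.75 (adjusted p = 0.00745) without EGF siERRalpha replicate 1. Of the 141 differences that were not called, 63 changed sign in some alternative. With 1 array left out, the number of genes called ran from 0 to 2 for EGF with siC, 1 to 3 for parental over starved with siC, 2 to 5 for EGF on average, 0 to 2 for HRG on average, 0 to 4 for siERRalpha in EGF-treated cells, 0 to 2 for siERRalpha over the 5 settings and 0 to 2 for the EGF difference of that response. The nonzero counts of these last 3 all came without EGF siERRalpha replicate 2, which leaves the array that stands apart alone in its group. For resistance with siC, 3 to 5 were called, and GATA3 was lost without resistant siC replicate 2.

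For EGF with siC, 0 genes were called under median scaling, with no filter, with probes detected on all 20 arrays, with every detected probe, with the arrays of the experiment only and with the methods' t-test, which adjusted to 0 for resistance with siC and parental over starved with siC too. For parental over starved with siC, 1 gene (TFF3) was called without background correction, under median scaling, in the authors' table, with no filter and with probes detected on all 20 arrays, and 4 with array weights. For EGF on average, 2 were called with probes detected on all 20 arrays, 2 with the arrays of the experiment only and 0 with array weights. For HRG on average, 1 (TFF1) was called without background correction and in the authors' table, and 0 under median scaling, with no filter, with probes detected on all 20 arrays, with every detected probe and with the arrays of the experiment only. For parental over starved on average, 2 were called with probes detected on all 20 arrays, a filter that leaves GATA3 and TFF1 out. The cause of the other losses was not tested. The fit with the replicate number as a block called 4 genes for resistance on average and 1 for EGF with siC, and changed no count. With the block in a fit of the growth factor arrays only, chosen after the data were seen, 0 genes were called for EGF with siC, 3 for EGF on average and 0 for HRG on average.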
